A study of Mus musculus with 12 samples.

Results

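The fatty acid oxidation enzymes described here are 10 genes, taken as the rows of a gene expression table whose gene name is Acsl1, Cpt1a, Cpt2, Acadvl, Acadl, Acadm, Hadha, Hadhb, Acaa2 or Etfa. They are 10 of the 49585 genes in the table, and each name matched 1 row. They were followed in RAW264.7 cells, a mouse macrophage line, in 12 libraries of ribosomal RNA-depleted total RNA. All cells, controls included, received 10 ng/mL lipopolysaccharide (LPS) together with 10 ng/mL mouse interferon-γ (IFN-γ), so no untreated cells were compared. At 24 h and at 96 h, 3 libraries came from cells given LPS and IFN-γ alone and 3 from cells that also received 50 µM Mdivi-1, a small molecule described as an inhibitor of the mitochondrial fission protein Drp1. The labels name 1 cell line and do not say whether replicates were separate cultures, so each p-value reflects the spread among these libraries, which may be technical.

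Mitochondrial β-oxidation shortens fatty acids in repeated cycles. A long-chain fatty acid is first joined to coenzyme A, then carried through the inner mitochondrial membrane as an acylcarnitine, and then passes through dehydrogenation, hydration, a second dehydrogenation and thiolytic cleavage. The electrons of the first step reach the respiratory chain through the electron transfer flavoprotein. In macrophages this pathway is classically linked to alternative activation by interleukin-4, while LPS with IFN-γ is linked to glycolysis and lipid storage.

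Values are TPM (transcripts scaled to a sum of 1000000 in each library), a share of each library scaled by transcript length, as the authors deposited them. The libraries fell into 3 kinds. In the 24 h libraries numbered 1 and 2, named protein-coding genes of the nuclear genome held 38.1 to 44.7% of the TPM. In the 6 libraries of 96 h they held 5.64 to 6.63%, with 53.1 to 74.2% in the mitochondrial ribosomal RNAs. In both 24 h libraries numbered 3 the mitochondrial ribosomal RNAs held 90.8 and 91.6%, and no oxidation enzyme exceeded 0.402 TPM. Those 2 libraries were left out of the fit, and results with them are given beside those they change. Time and kind of library cannot be told apart in this design. Nor can fewer cells and less RNA per cell.

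Macrophage markers matched the label at 24 h. Of 10 listed markers 9 were found by name. They summed to 18966 and 19347 TPM without Mdivi-1 and to 17612 and 16988 TPM with it in libraries 1 and 2. At 96 h the same sum was 253 to 391 TPM. Fibroblast markers were present too in the 24 h libraries numbered 1 and 2. The 11 summed to 498 and 566 TPM without Mdivi-1 and to 167 and 121 TPM with it. Markers of adipocytes, hepatocytes and muscle, tissues rich in fatty acid oxidation, each summed to at most 0.273 TPM in the 24 h libraries numbered 1 and 2, and all 5 adipocyte markers were at 0 in both of those with Mdivi-1. At 96 h the adipocyte markers summed to 1.74 to 11.04 TPM, with 0 of 5 above the 95th percentile of the receptor genes described below.

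Acsl1 has a pair of RefSeq start sites 19929 bases apart, and the gene-level TPM cannot separate them. Their upstream sequences are shown because Acsl1 is the enzyme with the largest difference between the treatments at 24 h. They are RefSeq sequences on GRCm38.p6, read along the gene, from chr8:46470787-46471036 for the first start and chr8:46490716-46490965 for the second, both on the plus strand. Capitals mark GC boxes (GGGCGG or its complement CCGCCC) in the first and CCAAT boxes (or the complement ATTGG) in the second.
Acsl1 first start: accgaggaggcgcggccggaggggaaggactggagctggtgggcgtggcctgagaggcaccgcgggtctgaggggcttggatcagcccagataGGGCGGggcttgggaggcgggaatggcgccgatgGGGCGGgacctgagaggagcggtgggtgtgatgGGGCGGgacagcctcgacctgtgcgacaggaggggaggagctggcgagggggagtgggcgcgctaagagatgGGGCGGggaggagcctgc
Acsl1 second start: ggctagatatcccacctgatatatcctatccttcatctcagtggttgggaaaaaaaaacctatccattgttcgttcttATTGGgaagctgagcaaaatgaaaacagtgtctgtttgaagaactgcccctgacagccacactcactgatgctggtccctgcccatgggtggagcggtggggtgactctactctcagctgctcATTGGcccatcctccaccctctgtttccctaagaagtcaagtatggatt
The first window held 4 GC boxes and no CCAAT box, with 72% G and C. The second held 2 CCAAT boxes and no GC box, with 48.4% G and C.

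Hadha and Hadhb, which encode both subunits of the mitochondrial trifunctional protein, lie head to head on mouse chromosome 5 with 272 bases between their RefSeq starts. The stretch between their annotated exons, chr5:30155163-30155247, is shown because it lies upstream of both genes. It is given on the plus strand, the strand of Hadhb, with GC boxes in capitals.
Hadha and Hadhb intergenic stretch: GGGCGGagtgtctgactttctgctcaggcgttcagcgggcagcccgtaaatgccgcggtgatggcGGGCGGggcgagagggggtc
Both GC boxes of the stretch are on the Hadhb strand.

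The windows of Cpt1a and Acadl are shown because at 96 h, beside a background of receptor genes, Acadl exceeded their 95th percentile in the most libraries and Cpt1a alone never exceeded their median. The Cpt1a window is chr19:3323051-3323284 on the plus strand, with GC boxes and 1 copy of the nuclear receptor unit AGGTCA (as its complement TGACCT) in capitals. It lies upstream of the RefSeq start at 3323301 but inside the gene as GENCODE M21 annotates it, which begins at 3322334. The Acadl window is chr1:66863310-66863559 on the minus strand, with GC boxes in capitals.
Cpt1a: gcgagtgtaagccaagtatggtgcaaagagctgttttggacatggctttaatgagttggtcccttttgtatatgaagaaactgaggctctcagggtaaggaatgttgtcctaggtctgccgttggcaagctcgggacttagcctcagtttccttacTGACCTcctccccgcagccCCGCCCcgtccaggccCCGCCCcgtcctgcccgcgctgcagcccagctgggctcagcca
Acadl: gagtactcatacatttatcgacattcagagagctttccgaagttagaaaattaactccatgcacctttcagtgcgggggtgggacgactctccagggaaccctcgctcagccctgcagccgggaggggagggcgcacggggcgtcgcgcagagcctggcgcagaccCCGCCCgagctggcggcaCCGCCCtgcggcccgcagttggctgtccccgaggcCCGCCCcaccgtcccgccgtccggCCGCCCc
Cpt1a held 2 GC boxes and Acadl held 4.

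Windows of 250 bases upstream of RefSeq starts were matched for 9 of the 10 enzymes and searched on both strands. GGGCGG was found in 6 enzymes (Acsl1, Cpt1a, Cpt2, Acadl, Hadha and Hadhb) and in 32.7% of 32851 windows of all genes. CCAAT was found in 3 enzymes (Acsl1, Cpt1a and Etfa) and in 33.8% of all windows, the Cpt1a copy lying in exon bases that are not printed. AGGTCA was found in 3 enzymes (Cpt1a, Acadvl and Acadm) and in 14.0% of all windows. The PPAR direct repeat, 2 copies of AGGTCA separated by 1 base, was found in 0 of 9 enzymes and in 0.0335% of all windows. The extended element TCAAGGTCA, bound by estrogen-related receptors, was found in 0 of 9 enzymes and in 0.387% of all windows. These matches describe the letters of the windows only.

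Each enzyme was present in all 4 of the 24 h libraries numbered 1 and 2, from 7.43 TPM for Hadhb to 60.3 TPM for Acsl1. Without Mdivi-1 the order of the mean TPM was Acsl1, Acadl, Cpt1a, Acaa2, Etfa, Hadha, Acadvl, Acadm, Cpt2 and Hadhb. In that order only Acaa2 and Etfa had overlapping libraries. With Mdivi-1 the first places were taken by Acadl and Cpt1a, followed by Acsl1, and the order of the other 7 was the same. The 10 enzymes summed to 289.6 and 283.5 TPM without Mdivi-1 and to 277.7 and 253.1 TPM with it.

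**Figure D1:**
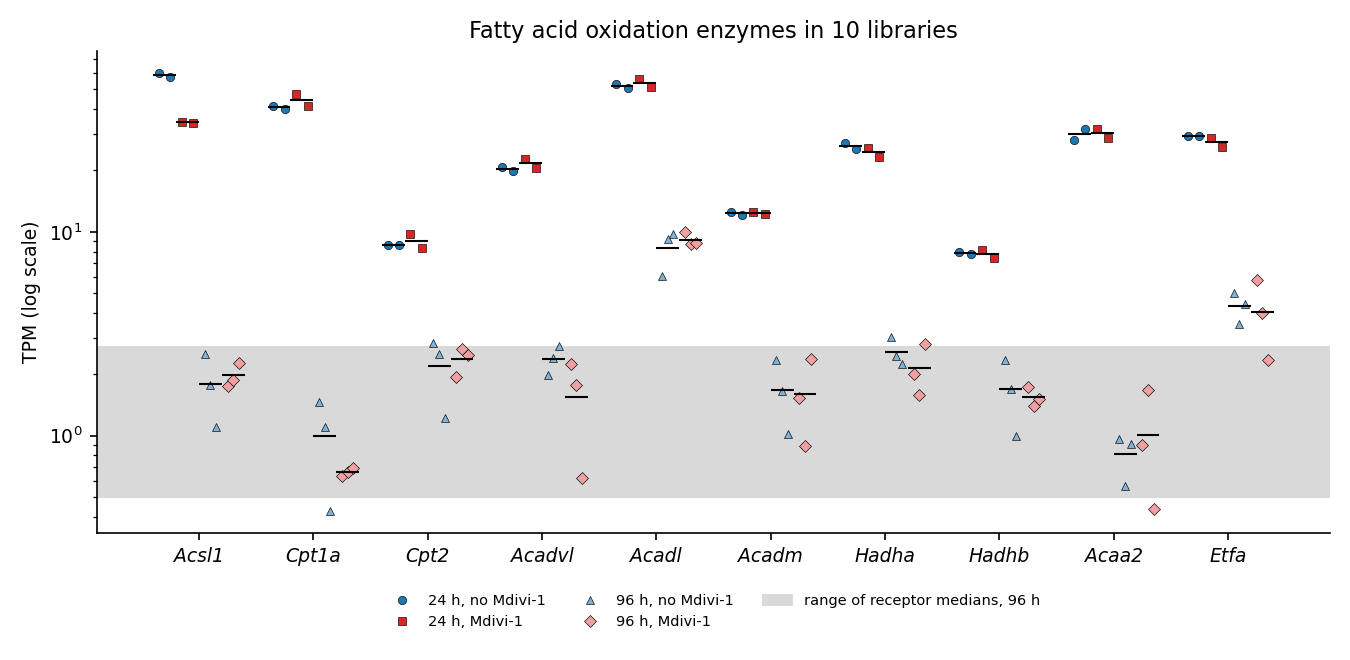
TPM of each of the 10 enzymes (log axis) in the 10 libraries of the fit, grouped by time and Mdivi-1, 1 point a library. At 24 h the enzymes lie between 7.43 and 60.3 TPM and at 96 h between 0.428 and 9.93 TPM; Acsl1 is the enzyme whose 24 h groups stand farthest apart.

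The effect of Mdivi-1 at 24 h was the first comparison. At an adjusted p under 0.05 in limma, 0 of the 10 enzymes were called, against 0.295% of 19631 genes tested (58 genes, all lower). At an unadjusted p under 0.05 the same limma fit held 1205 genes. Acsl1 had the largest difference, and the other 9 enzymes lay within 0.11 of 0 on the log2(TPM + 1) scale. The groups did not overlap for 2 of the 10 enzymes, Acsl1 and Etfa, both lower with Mdivi-1. Over all genes tested 43.4% did not overlap at 24 h, and 40.4% did so on the lower side. The median log2 difference was 0.012 over the 10 enzymes and -0.060 over all genes tested.

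Acsl1 (ENSMUSG00000018796), the long-chain acyl-CoA synthetase that activates fatty acids, was at 60.3 and 57.3 TPM without Mdivi-1 and at 34.6 and 34.1 TPM with it. Both Mdivi-1 libraries lay below both others, and replicates of a group differed little. The means were 58.8 ± 2.09 (SD, n = 2) and 34.4 ± 0.401 TPM (SD, n = 2), 41.6% lower with Mdivi-1 (percent change -41.6). The log2 difference was -0.76 ± 0.22 (SE), with a 95% interval of -1.24 to -0.27 and an adjusted p of 0.303 in limma. In a fit of the 4 libraries of 24 h alone the log2 difference of Acsl1 was -0.76 ± 0.08 with a limma adjusted p of 2.99e-04, in a fit that called 21.8% of 11105 genes. Over 21 alternatives the log2 difference of Acsl1 ranged from -0.79 to -0.50 and the limma adjusted p from 2.99e-04 to 1, and 3 of them called it. Leaving out the third 96 h library without Mdivi-1 gave an adjusted p of 0.0471 in limma. That library enters the 24 h comparison through the estimate of the spread and the set of genes tested (20402 without it). With both number 3 libraries put back the log2 difference was -0.61 ± 1.51.

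The share of TPM in named protein-coding genes also differed between these groups, at 44.6 and 44.7% without Mdivi-1 and 41.0 and 38.1% with it. Per 1000000 TPM of named protein-coding genes, Acsl1 was at 131.7 ± 5.01 (SD, n = 2) without Mdivi-1 and 87.0 ± 3.55 (SD, n = 2) with it. On that scale its log2 difference was -0.59 and those of the other 9 enzymes ran from 0.064 to 0.29, with 0 called by limma. The 11 fibroblast markers summed to 498 and 566 TPM without Mdivi-1 and to 167 and 121 TPM with it, and 3 of the 7 tested fell at 24 h in limma (log2 differences -2.67 for Col1a1, -2.54 for Col3a1 and -1.90 for Col1a2). Their part in the Acsl1 difference was not tested.

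Cpt1a (ENSMUSG00000024900), the outer-membrane carnitine palmitoyltransferase that commits long-chain acyl groups to the mitochondrion, was at 41.6 and 40.2 TPM without Mdivi-1 and 47.2 and 41.3 TPM with it. Cpt2 (ENSMUSG00000028607), which returns the acyl group to coenzyme A inside, was at 8.60 and 8.66 TPM without and 9.80 and 8.29 TPM with it. The groups overlapped for both transferases. The log2 difference of Cpt1a was 0.11, with a 95% interval of -0.42 to 0.64, and that of Cpt2 was 0.057, with a 95% interval of -0.53 to 0.65.

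The acyl-CoA dehydrogenases perform the first oxidation and differ in the chain length they prefer. Acadvl (ENSMUSG00000018574), for very long chains, was at 20.8 and 19.9 TPM without Mdivi-1 and 22.8 and 20.5 TPM with it. Acadl (ENSMUSG00000026003), for long chains, was at 52.8 and 50.7 TPM without and 56.1 and 51.2 TPM with it. Acadm (ENSMUSG00000062908), for medium chains, was at 12.5 and 12.1 TPM without and 12.4 and 12.3 TPM with it. All 3 dehydrogenases had overlapping groups. The log2 differences were 0.088 for Acadvl (95% interval -0.55 to 0.73), 0.049 for Acadl (-0.37 to 0.47) and 0.0066 for Acadm (-0.65 to 0.67). Acadl was the most abundant of the 3 per transcript length in each of the 10 libraries of the fit. Acadl overlaps the processed pseudogene Gm15793 on the same strand in GENCODE M21, and Acadvl overlaps Dvl2 on the other strand. How the authors' counting treated strand and shared reads is not given in the sources used here.

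Hadha (ENSMUSG00000025745), the trifunctional subunit with hydratase and 3-hydroxyacyl-CoA dehydrogenase activity, was at 27.4 and 25.5 TPM without Mdivi-1 and 25.8 and 23.2 TPM with it. Hadhb (ENSMUSG00000059447), the subunit with thiolase activity, was at 7.97 and 7.75 TPM without and 8.17 and 7.43 TPM with it. Neither subunit separated the groups. The log2 difference was -0.11 for Hadha (95% interval -0.56 to 0.35) and -0.011 for Hadhb (-0.57 to 0.55). Although the genes share the intergenic stretch above, Hadha was 3.44 and 3.29 times Hadhb without Mdivi-1 and 3.16 and 3.12 times Hadhb with it. Hadha overlaps Garem2 on the other strand.

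Acaa2 (ENSMUSG00000036880), a mitochondrial 3-ketoacyl-CoA thiolase that performs the last cleavage, was at 28.3 and 31.8 TPM without Mdivi-1 and 31.8 and 28.9 TPM with it. The groups overlapped, with a log2 difference of 0.017 and a 95% interval of -0.58 to 0.61. Etfa (ENSMUSG00000032314), a subunit of the electron transfer flavoprotein, was at 29.5 and 29.7 TPM without and 28.9 and 25.9 TPM with it. Both Mdivi-1 libraries of Etfa were lower, by a log2 difference of -0.11 with a 95% interval of -0.72 to 0.51. Every interval of the 9 enzymes other than Acsl1 held 0, and with 2 libraries a group these intervals reach at least 0.35 on the log2 scale on each side.

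**Figure D2:**
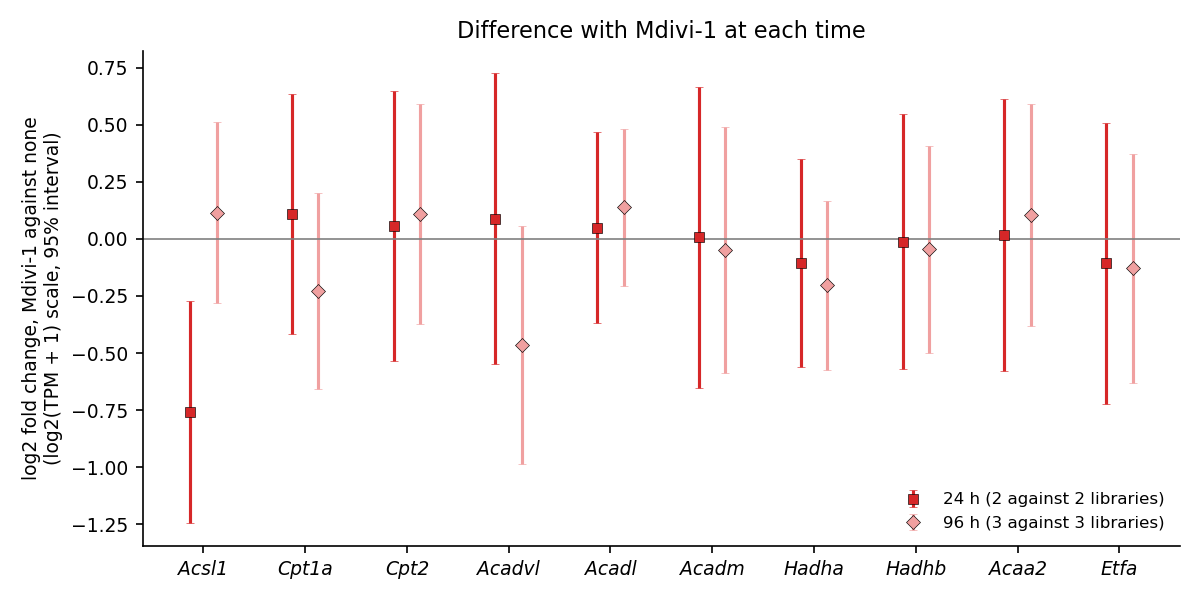
Log2 difference with Mdivi-1 minus without, on the log2(TPM + 1) scale, for each enzyme at 24 h and at 96 h, with 95% intervals from limma as bars. Acsl1 at 24 h (-0.76) is the point whose interval does not reach 0; no enzyme passed the adjusted threshold.

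After median-of-ratios scaling of the 4 libraries of 24 h alone, an alternative added after the data were seen, limma called 4 of the 10 enzymes, 1 lower and 3 higher, against 12% of 11080 genes (8.47% lower and 3.53% higher). Acsl1 was lower, at a log2 difference of -0.52 ± 0.07 with an adjusted p of 0.00773. Cpt1a at 0.34 (adjusted p 0.0196), Acadvl at 0.32 (0.0317) and Acadl at 0.28 (0.0346) were higher. The 3 higher calls were made in this fit only: the same scaling in the fit of 10 libraries called 0 of the 10 enzymes and 0 genes in all (272 at an unadjusted p under 0.05), and the 24 h libraries alone without it did not call these 3. The log2 difference of Acsl1 was below 0 under each scaling tried.

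The other acyl-CoA synthetases were looked at after their values were seen, because of Acsl1. Acsl5 was at 115 and 110 TPM without Mdivi-1 and 90.7 and 91.1 TPM with it. Acsl4, which prefers arachidonic acid, was at 45.4 and 47.7 TPM without and 35.8 and 32.5 TPM with it. Acsl3 was at 4.86 and 6.04 TPM without and 3.66 and 3.60 TPM with it. In each of the 3 the Mdivi-1 libraries lay below the others, as they did for Acsl1 and for 40.4% of all genes tested. The log2 differences were -0.31 for Acsl5, -0.44 for Acsl4 and -0.47 for Acsl3, and none was called by limma (adjusted p 1, 0.538 and 1).

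Of the other genes of fatty acid activation and carnitine transport, 9 of 13 listed were tested at 24 h and 0 were called, with a median log2 difference of -0.13 and non-overlapping lower groups in 5, against 40.4% of all genes. The carnitine-acylcarnitine carrier Slc25a20 was at a mean of 16.1 TPM without Mdivi-1 and 14.97 TPM with it, with overlapping groups. Of other mitochondrial oxidation genes 16 of 18 were tested and 0 were called, with a median of 0.015, 5 non-overlapping higher and 5 lower, against 43.4% of all genes in either direction. Among them the hydratase Echs1 was at 23.6 and 20.2 TPM, and the short-chain dehydrogenase Acads at 16.6 and 14.3 TPM. The flavoprotein subunit Etfb was at 44.6 and 47.1 TPM, its oxidoreductase Etfdh at 6.29 and 6.46 TPM, and the hydroxyacyl-CoA dehydrogenase Hadh at 11.5 and 11.4 TPM. Echs1 and Acads lay lower in both Mdivi-1 libraries, Etfb and Etfdh lay higher in both, and Hadh overlapped.

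Upstream of the enzymes, 13 of 15 listed regulators were tested at 24 h and 0 were called (median log2 difference -0.23). The nuclear receptor Pparg was at 5.29 TPM without Mdivi-1 and 7.22 TPM with it, Ppard at 6.91 and 5.51 TPM, and the coactivator Ppargc1b at 2.43 and 1.92 TPM. Of 15 listed PPAR target and lipid storage genes 12 were tested and 0 were called (median 0.11), with 5 non-overlapping higher and 4 lower against 43.4% of all genes in either direction. The fatty acid transporter Cd36 was at 552 and 542 TPM. The lipid droplet coat gene Plin2 was at 321 and 314 TPM without Mdivi-1 and 462 and 410 TPM with it. Its groups did not overlap, at a log2 difference of 0.45 ± 0.12 with a limma adjusted p of 0.239. Lipoprotein lipase Lpl, named after its values were seen, was at 339 and 281 TPM without and 501 and 410 TPM with it, a log2 difference of 0.55 with a limma adjusted p of 0.533. The 4 that lay lower, also named afterwards, were Ucp2 (log2 difference -0.24), Lipe (-0.32), Abhd5 (-0.16) and Angptl4 (-0.41).

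**Figure D3:**
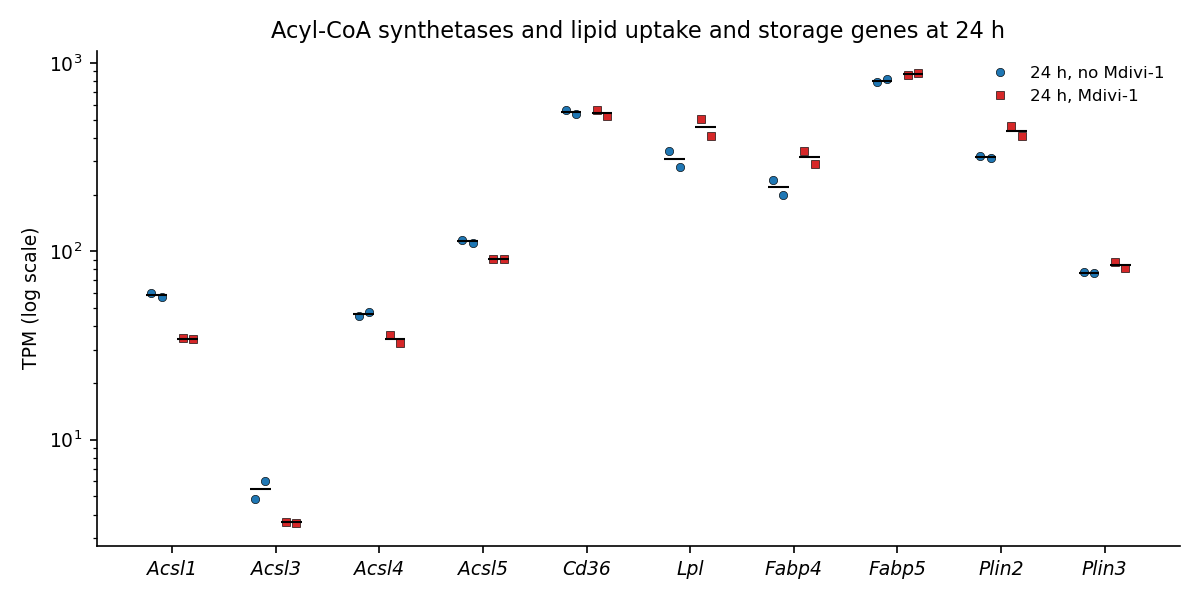
TPM in the 24 h libraries numbered 1 and 2 for acyl-CoA synthetases and for lipid storage genes, 1 point a library. Acsl1, Acsl3, Acsl4 and Acsl5 lie lower in both Mdivi-1 libraries and Plin2 and Lpl lie higher in both. None passed limma's adjusted threshold, and 43.4% of all genes stood apart. Of the 12 storage genes tested 5 stood apart higher, all of them plotted. The 4 that stood apart lower (Ucp2, Lipe, Abhd5 and Angptl4) are not plotted.

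At 96 h the enzymes were low, and their levels were set beside those of 1443 chemosensory receptor genes (olfactory, vomeronasal and trace amine), which macrophages are not expected to use. The median receptor was at 0 TPM in each 24 h library of the fit. At 96 h it was at 2.71, 2.11 and 0.501 TPM without Mdivi-1 and at 1.28, 1.38 and 1.87 TPM with it. A level within the receptors' range was read as background and not as expression.

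Acadl was the enzyme most often above that background. It was at 6.06, 9.24 and 9.79 TPM without Mdivi-1 and 9.93, 8.72 and 8.76 TPM with it, above the receptors' 95th percentile in 5 of 6 libraries. The exception was the first library without Mdivi-1, which had the highest receptor level. Etfa was at 5.03, 3.52 and 4.43 TPM without and 5.80, 3.98 and 2.35 TPM with it, above the 95th percentile in 3 of 6 libraries.

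Hadha was at 3.04, 2.46 and 2.23 TPM without Mdivi-1 and 2.01, 1.58 and 2.81 TPM with it. Acadvl was at 1.99, 2.41 and 2.74 TPM without and 2.23, 1.78 and 0.617 TPM with it. Each exceeded the 95th percentile in 1 of 6 libraries. The other 6 enzymes exceeded it in 0 of 6. Of these, Cpt2 ran from 1.22 to 2.84 TPM and was above the receptors' median in 6 of 6 libraries.

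Acsl1 was at 2.52, 1.78 and 1.10 TPM without Mdivi-1 and 1.76, 1.88 and 2.28 TPM with it, above the receptors' median in 4 of 6 libraries. Acadm (0.894 to 2.37 TPM) and Hadhb (0.9998 to 2.36 TPM) were above it in 3 of 6 each. Acaa2 (0.438 to 1.68 TPM) was above it in 2 of 6. Cpt1a was at 1.47, 1.10 and 0.428 TPM without and 0.634, 0.665 and 0.694 TPM with it, below the receptors' median in every 96 h library, at 0.371 to 0.854 times that median. Cpt1a transcripts were thus not detectable above background at 96 h, although Cpt1a had the third highest mean of the 10 enzymes at 24 h without Mdivi-1.

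**Figure D4:**
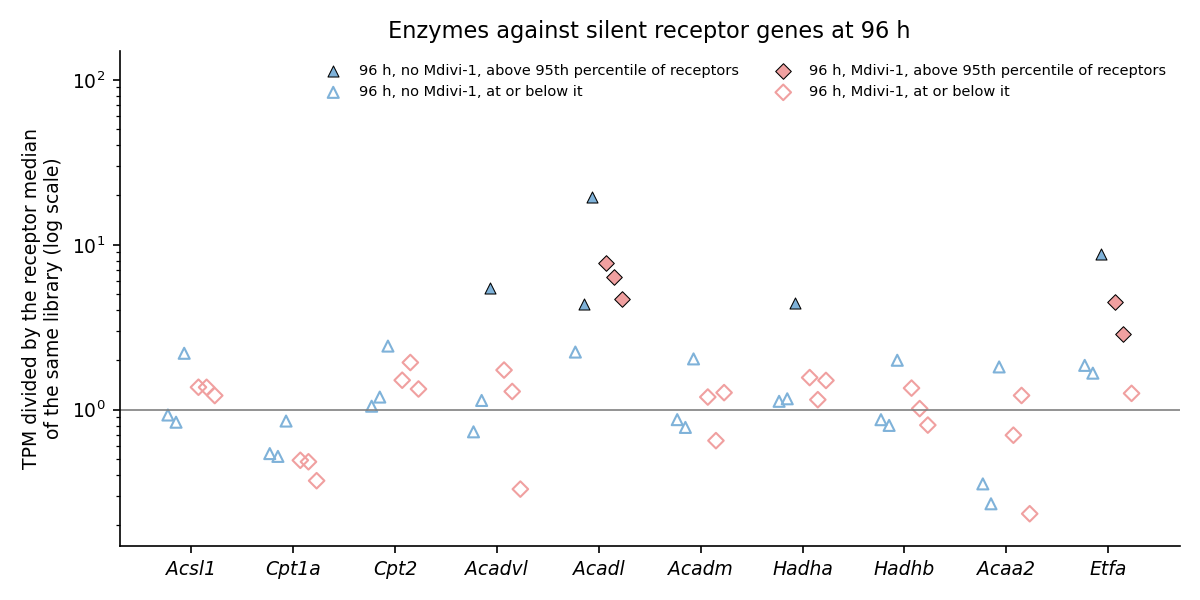
TPM of each enzyme divided by the median TPM of 1443 receptor genes in the same library, in the 6 libraries of 96 h (log axis), 1 point a library. Acadl lies 2.24 to 19.5 times above the receptors' median and Cpt1a lies below it in all 6, at 0.371 to 0.854 times.

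For Mdivi-1 at 96 h, limma called 0 of the 10 enzymes against 0.143% of genes tested (28 genes, with 1117 at an unadjusted p under 0.05). The groups overlapped for all 10 enzymes, while 6.19% of all genes tested did not overlap at 96 h, 4.05% on the lower side. The log2 difference ran from -0.46 for Acadvl (95% interval -0.98 to 0.056, limma adjusted p 0.985) to 0.14 for Acadl. Acsl1 had a log2 difference of 0.12, with a 95% interval of -0.28 to 0.51. For 6 of the 10 enzymes both groups lay within the receptors' range in every library. Of the other lists 0 genes were called by limma at 96 h. Plin2 came nearest, at 6.64, 5.27 and 6.11 TPM without Mdivi-1 and 9.47, 9.05 and 9.91 TPM with it. Its groups did not overlap, at a log2 difference of 0.58 ± 0.10 with a limma adjusted p of 0.0685.

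Whether the Mdivi-1 effect differed between 24 h and 96 h was tested as an interaction. Limma called 0 of the 10 enzymes, against 0.122% of genes tested (24 genes, with 868 at an unadjusted p under 0.05). Acsl1 had the largest interaction, 0.87 ± 0.28 (SE) on the log2 scale with a 95% interval of 0.25 to 1.501 and a limma adjusted p of 0.660. Its 96 h level lay in the receptors' range.

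Between 24 h and 96 h all 10 enzymes fell in TPM, both without Mdivi-1 and with it, at an adjusted p under 0.05 in limma. Of all genes tested 46.9% fell without Mdivi-1 and 44% fell with it, and 83.2% and 79.4% were called in either direction. No 96 h library of any enzyme reached its lowest 24 h library. That held for 49% of all genes without Mdivi-1 and 48.3% with it, and groups stood apart in either direction for 85.9% and 89.6%. The median log2 difference of the 10 enzymes was -2.60 without Mdivi-1 and -2.80 with it, against -0.41 and -0.12 over all genes tested. Many genes tested were lower in level than the enzymes. Of the 5813 genes averaging 5 TPM or more, 5170 fell without Mdivi-1 and 5121 with it. Their median log2 differences were -2.58 and -2.43, so falls of this size were common at such levels. That average was taken over both times, so a gene could enter through its 24 h level alone, which favors falls. With both number 3 libraries put back, 0 of the 10 enzymes were called in either time comparison.

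At 96 h Acsl1, Cpt1a, Acaa2, Acadm, Hadhb and Cpt2 lay within the receptors' range, so the size and order of their falls cannot be told apart from their 24 h levels. Without Mdivi-1, on the log2(TPM + 1) scale, the difference was -4.45 ± 0.20 (SE) for Acsl1, -4.42 ± 0.22 for Cpt1a and -4.10 ± 0.25 for Acaa2. It was -2.94 for Hadha, -2.66 for Acadvl, -2.53 for Etfa, -2.52 for Acadl and -2.34 for Acadm. It was smallest for Hadhb, at -1.75 ± 0.23, and for Cpt2, at -1.63 ± 0.24, with limma adjusted p of 4.85e-05 and 1.36e-04. Hadhb and Cpt2 were also the enzymes with the lowest levels at 24 h, and a pseudocount of 1 TPM understates the fall of a gene near the receptors' range.

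With Mdivi-1 the largest falls were again those of Cpt1a (-4.76), Acaa2 (-4.01) and Acsl1 (-3.58). The log2 difference was -3.22 for Acadvl, -3.04 for Hadha, -2.55 for Etfa, -2.43 for Acadl and -2.40 for Acadm. It was -1.79 for Hadhb and -1.58 for Cpt2. The time comparisons with and without Mdivi-1 use separate libraries.

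These falls are shares of libraries whose composition differed, so they were set beside other scales, of which the named protein-coding scale was not planned. Per 1000000 TPM of named protein-coding genes, Acsl1 was at 131.7 at 24 h and 28.3 at 96 h without Mdivi-1, Cpt1a at 91.5 and 15.6, and Acaa2 at 67.2 and 13.2. Their log2 differences were -2.23, -2.60 and -2.31, and limma called each. Acadl was at 115.9 and 135.9 per 1000000, Etfa at 66.2 and 69.6, and Acadm at 27.5 and 26.4. Limma called none of those 3 on that scale. Cpt2 was at 19.3 and 34.5 per 1000000 and was called higher, at a log2 difference of 0.75 with a limma adjusted p of 0.0381. Its 96 h level exceeded the receptors' median in 6 of 6 libraries but their 95th percentile in 0 of 6. It lay within the receptors' range, read here as background, and Cpt2 did not pass the filter of the background-subtracted table.

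Under median-of-ratios scaling limma called 4 of the 10 enzymes lower without Mdivi-1 (Acsl1, Cpt1a, Acaa2 and Hadha) against 9.34% of genes tested, and 5 lower with it (Acadvl besides) against 9.41%. Most calls on that scaling were higher, at 55.6% of genes without Mdivi-1 and 58% with it, which brings either direction to 64.9% and 67.5%. On the named protein-coding scale 3 enzymes were called lower without Mdivi-1 against 10.1% of genes tested, and 5 were called lower with it against 10.2%. On the same scale 1 enzyme, Cpt2, was called higher in each comparison, against 55.8% and 58.9% of genes (65.9% and 69.1% in either direction). With Mdivi-1 Acsl1 (-1.39), Cpt1a (-3.23), Acaa2 (-2.32), Acadvl (-1.25) and Hadha (-0.83) were lower and Cpt2 (0.74) was higher. The named protein-coding scale moved the median of all genes tested to 1.55 without Mdivi-1 and 1.75 with it, and median-of-ratios scaling moved it to 1.46 and 1.52. Relative to the medians of all genes tested, which include genes of low level, the 10 enzymes lay below in each of the 3 scalings. Over the 5813 genes averaging 5 TPM or more, the median in TPM was -2.58 without Mdivi-1. Acadl (-2.52), Etfa (-2.53), Acadm (-2.34), Hadhb (-1.75) and Cpt2 (-1.63) did not lie below that median, although Hadhb and Cpt2 averaged under 5 TPM themselves. With Mdivi-1 that median was -2.434, and Acadl (-2.430), Acadm (-2.40), Hadhb (-1.79) and Cpt2 (-1.58) did not lie below it. The gap to the median of all genes tested ran from -4.04 (Acsl1) to -1.22 (Cpt2) in TPM without Mdivi-1. On the named protein-coding scale that gap ran from -4.14 (Cpt1a) to -0.80 (Cpt2). After structured and mitochondrial RNA were left out, limma called all 10 enzymes in both comparisons, each lower. There 7715 of 31049 genes were called lower without Mdivi-1 and 7388 with it. In the background-subtracted table, where 8 enzymes passed the filter, limma called all 8 lower in both comparisons. The receptors' median that was subtracted was 0 TPM at 24 h and above 0 at 96 h. An enzyme at background at 96 h therefore passed that filter only through its 24 h level. Cpt1a, below that median in every 96 h library, was set to 0 there, so its fall was fixed in advance. Of 5930 genes, 4558 were called lower there without Mdivi-1 and 4527 with it. Acadl, Acadm and Etfa lay 0.14, 0.031 and 0.012 above the median of -1.70 in that table without Mdivi-1.

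**Figure D5:**
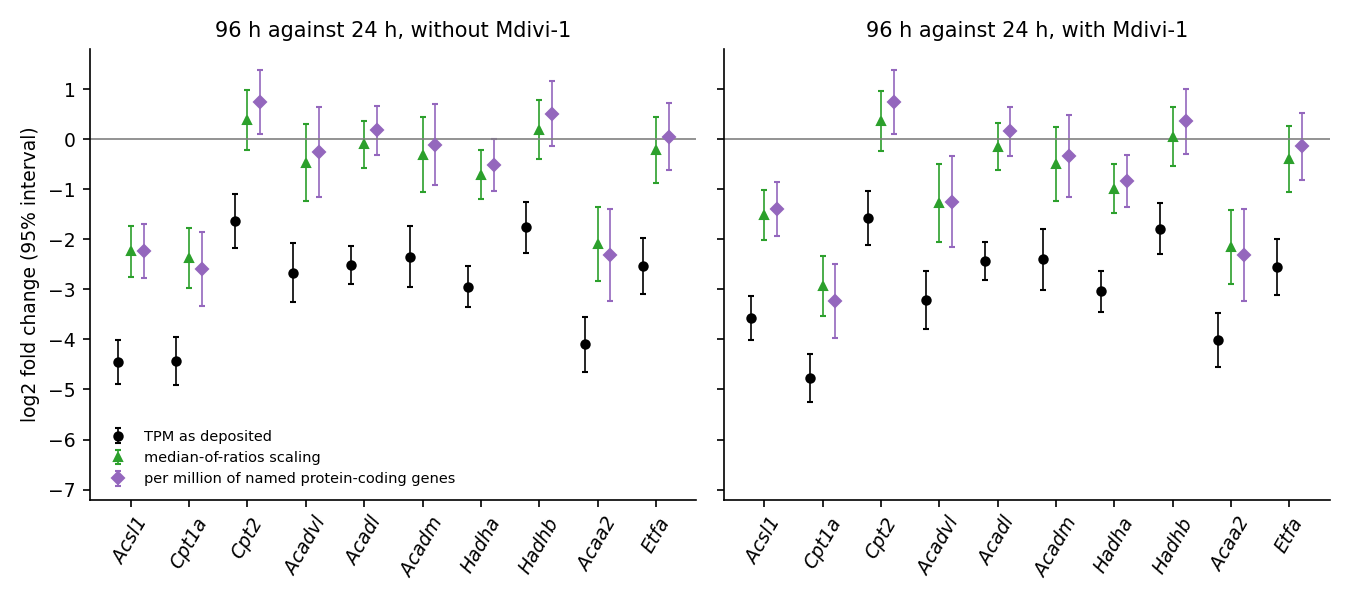
Log2 difference of 96 h minus 24 h for each enzyme under several scalings of the same libraries, without Mdivi-1 and with it. Without Mdivi-1, Acsl1, Cpt1a, Acaa2, Hadha, Acadvl and Acadm lie below 0 in all of them. Cpt2 lies there at -1.63 in TPM and at 0.75 per 1000000 of named protein-coding genes.

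The other lists were mostly called lower in TPM as well, where 46.9% of all genes were. Their values on the other scales are not given here, although the falls of the enzymes depended on the scale. Limma called lower without Mdivi-1 all 9 tested genes of activation and carnitine transport, led by Acsl5 (-4.53) and Slc25a20 (-3.28), and all 16 of the other mitochondrial oxidation genes, led by Acot13 (-4.09). Of the always reported genes, the log2 difference was -3.33 for Echs1, -2.91 for Etfb, -2.52 for Hadh, -2.03 for Acads and -1.25 for Etfdh, and each fell. Of 13 regulators 11 fell, and Ppargc1b did not pass (log2 difference -0.18). Of 12 PPAR target and storage genes 11 fell, led by Plin2 (-5.51), Cd36 (-5.38) and Fabp4 (-5.29). The 9 macrophage markers all fell, with a median log2 difference of -5.70. Their part in the fall of the enzymes was not tested.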

How the data were processed

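The authors deposited 1 table of TPM per gene for 12 libraries, which per the labels' protocols were made from 100 ng of total RNA after ribosomal RNA depletion. For the aligner, the counter and the annotation, the sources used here give no name. The submitters' processing notes list hg19, a human build, while the identifiers are mouse Ensembl ones, of which 49326 of 49585 (99.5%) occur in GENCODE M21. Each column sums to 1000000, so depth is unknown. No column lacked a sample (0).

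Both 24 h libraries numbered 3 were left out for their low protein-coding share. For the other 10, those genes averaging 1 TPM or more entered the fit, and log2(TPM + 1) was fitted in 1 model of 4 groups with limma-trend (limma 3.58.1, R 4.3.3, 6 residual degrees of freedom, Benjamini-Hochberg adjustment over 19631 genes, called under 0.05). Such fold changes understate changes of low genes. All 10 enzymes passed the filter. The receptor genes and the named protein-coding genes were chosen by symbol and GENCODE type. Upstream windows came from RefSeq (GRCm38.p6), and bases in annotated exons were removed. Genes named are the 10 enzymes, 12 fixed pathway genes (1 is not reported here) and, in each other list, up to 3 called genes with the largest change; others are stated as chosen afterwards. The enzymes, lists and tests were chosen with earlier results of these data known. The fit was tested on simulated data. Alternatives changed the libraries, scaling, background, pseudocount, filter and replicate block. Python 3.11.15, numpy 2.4.6, pandas 2.3.3 and matplotlib 3.10.9 were used.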

Additional observations from a re-analysis of the deposited data

How the results depend on the processing

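Counts of genes called by limma depended on the settings. Mdivi-1 at 24 h called 58 genes, Mdivi-1 at 96 h 28, the interaction 24, and time 16342 without and 15580 with Mdivi-1. With all 12 libraries the counts were 0 for Mdivi-1 at 24 h, 0 for the interaction, and 5003 and 5615 for time. The 24 h libraries alone called 2424 (1330 with median-of-ratios scaling) and the 96 h libraries alone called 0. Median-of-ratios scaling gave 0 at 24 h, 53 at 96 h and 0 for the interaction. Leaving out structured and mitochondrial RNA gave 1 at 24 h, 0 for the interaction and 23932 for time with Mdivi-1. Background subtraction gave 0 at 96 h and 5186 and 5180 for time. A pseudocount of 0.1 gave 26 at 24 h. No filter gave 32 at 24 h, 46 at 96 h and 13 for the interaction, and a filter at 5 gave 51 at 96 h and 5704 and 5669 for time. The named protein-coding scale gave 8 at 24 h and 7 for the interaction. Leaving out 1 library at a time gave 0 to 356 at 24 h, 4 to 806 at 96 h, 0 to 84 for the interaction, and 12298 to 18156 and 11264 to 17603 for time. The highest counts for Mdivi-1 came without the third 96 h library without Mdivi-1.

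Replicate numbers did not pair the 10 libraries of the fit (correlations of same-numbered departures -0.123, -0.0248 and -0.257 at 96 h and -0.0287 at 24 h). With the number 3 libraries put back, both of these departed together at 24 h (0.980), and numbers 1 and 2 departed from them alike, so only number 3 is told apart. With the replicate block the counts were 1 for Mdivi-1 at 24 h, 3 at 96 h, 4 for the interaction, and 12062 and 11158 for time. The numbers are balanced within each time, so the block cannot move a log2 difference for Mdivi-1 (Acsl1 at 24 h -0.76).

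Single enzymes turned direction as follows, and these values were not called except where stated. For Mdivi-1 at 24 h, all 12 libraries gave -0.059 for Cpt2, -0.036 for Acadl and -0.11 for Acadm. Hadha, Hadhb and Etfa became 0.12, 0.17 and 0.12 under median-of-ratios scaling, 0.12, 0.20 and 0.12 with it in the 24 h libraries alone, 0.079, 0.17 and 0.078 without structured and mitochondrial RNA, and 0.065, 0.15 and 0.064 on the named protein-coding scale. Background subtraction gave 0.068 for Hadha and 0.069 for Etfa. For Mdivi-1 at 96 h, median-of-ratios scaling gave 0.013 for Acadm and 0.031 for Hadhb, the named protein-coding scale 0.0024 for Hadhb, and background subtraction -0.074 for Acaa2. For the interaction, Cpt2, Acadl and Acaa2 became -0.016, -0.044 and -0.062 under median-of-ratios scaling, -0.089, -0.11 and -0.11 without structured and mitochondrial RNA, and -0.0038, -0.022 and -0.011 on the named protein-coding scale. Background subtraction gave -0.059 for Acadl and -0.26 for Acaa2, and all 12 libraries 0.059 for Acadm and 0.042 for Hadhb. For time, median-of-ratios scaling gave 0.39 for Cpt2 and 0.19 for Hadhb without Mdivi-1 and 0.37 and 0.050 with it. The named protein-coding scale gave 0.75 for Cpt2 (called), 0.18 for Acadl, 0.51 for Hadhb and 0.053 for Etfa without Mdivi-1, and 0.74 for Cpt2 (called), 0.16 for Acadl and 0.36 for Hadhb with it.

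Leaving out 1 library at a time gave ranges that crossed 0. For Mdivi-1 at 24 h these were -0.051 to 0.17 for Cpt2, -0.016 to 0.11 for Acadl, -0.013 to 0.026 for Acadm, -0.072 to 0.049 for Hadhb and -0.064 to 0.10 for Acaa2. At 96 h they were -0.075 to 0.30 for Acsl1, -0.14 to 0.26 for Cpt2, -0.054 to 0.25 for Acadl, -0.26 to 0.16 for Acadm, -0.24 to 0.13 for Hadhb, -0.13 to 0.32 for Acaa2 and -0.37 to 0.14 for Etfa. For the interaction they were -0.19 to 0.20 for Cpt2, -0.10 to 0.20 for Acadl, -0.26 to 0.15 for Acadm, -0.25 to 0.033 for Hadha, -0.23 to 0.14 for Hadhb, -0.14 to 0.30 for Acaa2 and -0.27 to 0.25 for Etfa. The cause of these changes was not tested. In either time comparison all 10 enzymes kept their fall and their call without any 1 library. Depth is unknown from TPM, and background subtraction, the filter at 5 and the 96 h fit each tested 8 of the 10 enzymes.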

Other observations

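Peroxisomal oxidation shortens chains that mitochondria handle poorly. At 24 h, 13 of 14 listed peroxisomal genes were tested and limma called 0 with Mdivi-1 (median log2 difference -0.058). Phyh, which opens the breakdown of phytanic acid and was picked after its values were seen, was at 47.0 and 49.8 TPM without Mdivi-1 and at 34.2 and 32.0 TPM with it. Both Mdivi-1 libraries of Phyh were lower, at a log2 difference of -0.54 with a limma adjusted p of 0.498. Of 5 listed genes of ketone use 4 were tested and 0 were called (median -0.15).

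In the 24 h libraries numbered 3 the 10 enzymes summed to 2.45 TPM without Mdivi-1 and to 1.27 TPM with it. Per 1000000 TPM of named protein-coding genes the sums were 357 and 342, against 634 to 677 in the 24 h libraries numbered 1 and 2 and 400 to 488 at 96 h. In both number 3 libraries 0 of the 10 enzymes exceeded the receptors' 95th percentile, so these sums are read as background.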
